A study of Mus musculus with 11 samples.

Results

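The response of Bmpr1a-/- mouse embryonic stem cells (ESCs) to N2B27 was examined on 5 one-colour Affymetrix arrays of total RNA. Of these, 2 arrays, numbered 2 and 3, hold mutant cells kept in ESC medium, and 3 arrays, numbered 1 to 3, hold mutant cells after 3 days in N2B27. The comparison covers every gene with a transcript cluster of 1 gene symbol, which gave 19935 genes from the 28815 transcript clusters of the table (a transcript cluster is the array's unit for a gene or part of one). The series holds 11 arrays in all, and the other 6 are of wild type E14 cells, 3 in ESC medium and 3 after 3 days in N2B27, whose response is given beside that of the mutant cells. The labels name 3 mutant lines, C1-6, Fr124 and Fr88, without saying which line is on which array, so a difference between the media and a difference between the lines on these arrays cannot be told apart. Nothing in the labels ties replicate arrays to separate cultures, and the p-values therefore reflect array-to-array spread that may be only technical. In bulk RNA, fewer cells of a type and less RNA per cell cannot be told apart either.

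ESCs in serum and LIF, the cytokine that signals through STAT3, are held in a naive pluripotent state, and bone morphogenetic proteins (BMPs) support that state through SMAD proteins and the Id genes. BMPR1A is a type I receptor for BMPs. N2B27 is a serum-free medium without added LIF or BMP, in which ESCs leave the naive state, pass through a formative state like that of the early postimplantation epiblast, and often go on along a neural route.

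The deposited values are on a log2 scale and each row is centred on a baseline of its own. A value of 0 is therefore not an absent transcript, and only differences within a gene can be read. For the same reason the level of the markers that define ESCs or other cell types could not be judged. Between media, all 7 ESC markers checked (Pou5f1, Sox2, Nanog, Zfp42, Esrrb, Klf4 and Dppa5a) fell, and their summed value went from 11.81 and 11.66 in ESC medium to between -2.49 and -2.06 in N2B27. Bmpr1a itself, the targeted gene, read -0.03 and 0.00 in the mutant arrays in ESC medium and 0.15, -0.14 and -0.05 in those in N2B27, with a fitted difference of 0.00 between media, whose sign turned on leaving out 1 array. In control cells it was 0.16 to 0.37 in ESC medium and 0.61 to 0.76 in N2B27.

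After 3 days in N2B27, 2971 genes were higher and 2047 lower in the mutant cells, 14.9% and 10.3% of the genes tested. These shares are the background for every list count in mutant cells below. A gene was called where limma's moderated test gave a Benjamini-Hochberg adjusted p under 0.05 over all 19935 genes. Of these, 648 were higher and 352 lower by at least 1 on the log2 scale, that is 2-fold, which is 3.25% and 1.77% of the genes tested. Under quantile normalization 1991 genes were higher and 1965 lower, so 50.3% of the calls were higher in place of 59.2%. For the calls past a log2 difference of 1 the split was 313 against 269, or 53.8% higher in place of 64.8%. The excess of rises, and with it the shares of 14.9% and 10.3%, thus depended on the scaling between arrays. The arrays of the media did not overlap for 24.2% of genes on the higher side and 19.3% on the lower side. Among the called genes, 2967 that rose and 2045 that fell had no such overlap. The median difference over all genes was 0.01. Here and below, leaving out either mutant ESC array leaves 1 in that group, so a call can be lost where the difference itself holds. Leaving out mutant ESC replicate 2 lowered the counts to 1607 higher and 1113 lower, and leaving out mutant ESC replicate 3 to 2072 and 1313. Mutant N2B27 replicate 2 stood apart from the other N2B27 arrays of its genotype. Its values correlated with those of replicates 1 and 3 at 0.229 and 0.368 across genes, against 0.677 between these 2, and without it 3339 genes were higher and 2617 lower.

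Control cells went through a medium change of similar extent, with 2554 genes higher and 2651 lower, 12.8% and 13.3% of genes. Of the genes that rose in mutant cells, 1747 rose in control cells too, which is 58.8% of the mutant and 68.4% of the control calls. Among the genes that fell, 1469 did so in both, 71.8% of the mutant and 55.4% of the control calls. A call in 1 genotype alone does not show a difference between genotypes. The test of that difference, the interaction (the medium difference in mutant cells minus that in control cells), was positive for 312 genes and negative for 110, 1.57% and 0.552% of the genes tested. The mutant and control lines also differ in other ways. Hprt read -0.13 to 0.92 in mutant and -5.22 to -4.47 in control arrays, and the Y-linked Eif2s3y -3.73 to -3.54 in mutant arrays against 0.37 to 0.72 in control arrays. For the interaction, the Bmpr1a genotype, the cell line and the sex chromosomes therefore cannot be told apart.

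**Figure D1:**
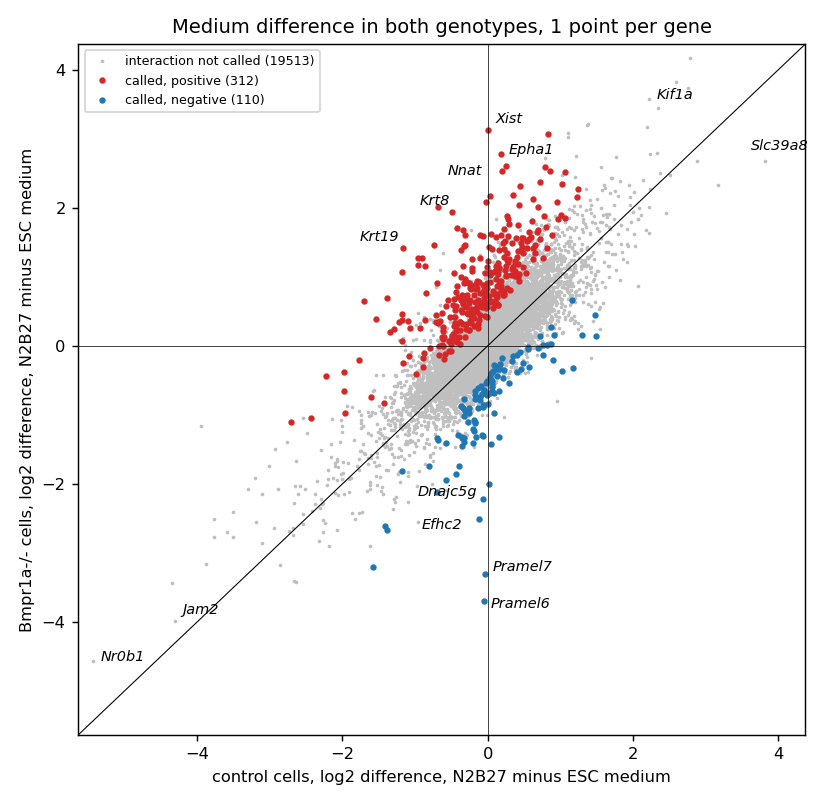
Each point is 1 of 19935 genes, placed by its log2 difference between N2B27 and ESC medium in control cells (x axis) and in Bmpr1a-/- cells (y axis), with the line of equal values. Most points follow the line from Nr0b1, low in both, to Kif1a, high in both, while 312 genes lie called above it, Xist among them, and 110 called below it, with Pramel6 and Pramel7 farthest down.

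Genes of the naive pluripotent state fell as a group. All 21 measured genes of the list were called lower, against 10.3% of genes tested, and their median difference was -2.07, against 0.01 over all genes. Nr0b1, an X-linked orphan receptor gene of the naive network, read 4.26 and 4.10 in ESC medium and -0.43, 0.00 and -0.73 in N2B27, a difference of -4.57 (SE 0.22, adjusted p = 2.96e-06). Zfp42, the Rex1 gene used as a marker of naive cells, went from 3.53 and 3.21 to 0.16, 0.00 and -0.35 (-3.44, SE 0.22, adjusted p = 1.22e-05). For Esrrb, a nuclear receptor gene that sustains self-renewal, the values were 2.46 and 2.52 against 0.00, -0.64 and -0.19 (-2.77, SE 0.22, adjusted p = 3.01e-05). The arrays of the media lay far apart in all 3 genes.

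Tcl1, an AKT cofactor gene, fell by 3.41, and Klf2 and Klf4, of the Krüppel-like factors, fell by 2.27 and 2.69. Klf4 read 2.44 and 2.43 in ESC medium and -0.25, -0.25 and -0.28 in N2B27. Nanog, the homeobox gene of naive cells, was less even, with 1.14 and 1.15 against -1.42, -0.20 and -0.41, and a difference of -1.82 (SE 0.34, adjusted p = 0.00301). In control cells all 21 naive genes fell too, with a median of -2.21.

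**Figure D2:**
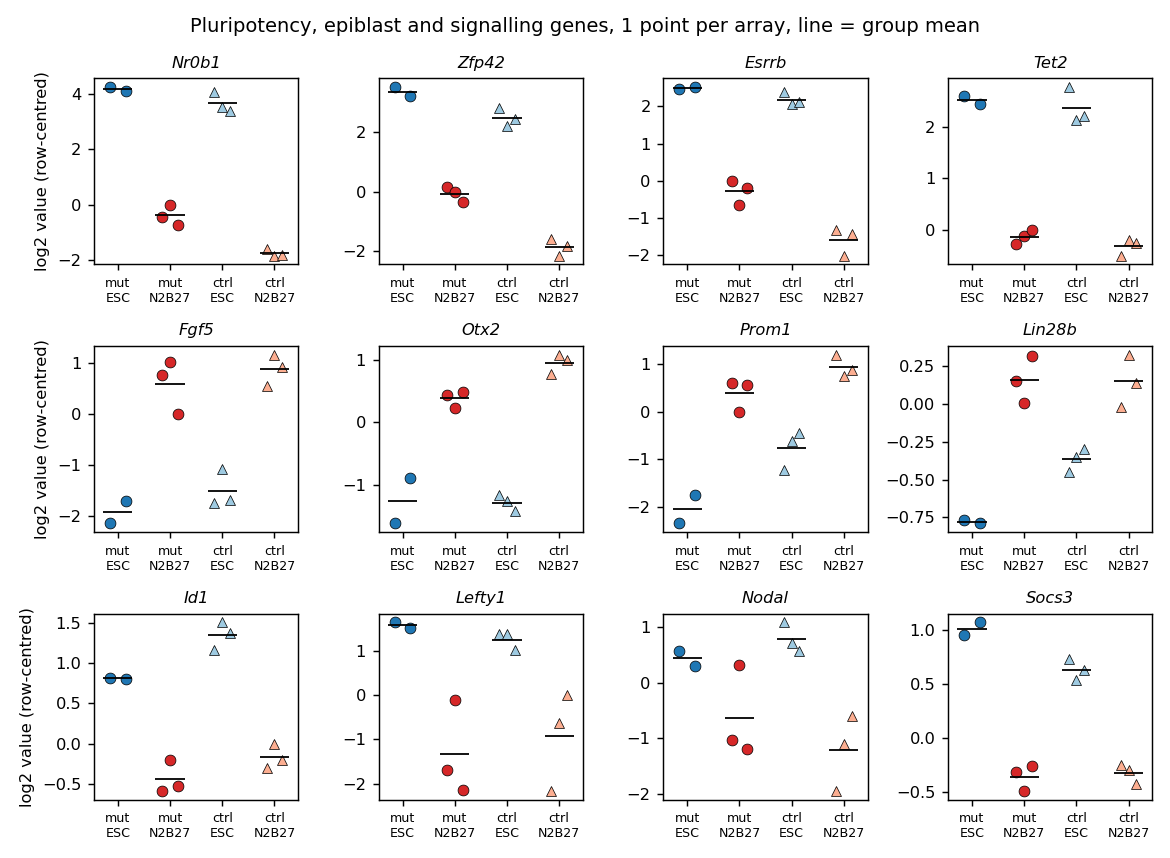
Row-centred log2 values of 12 genes, 1 point per array, with circles for Bmpr1a-/- and triangles for control cells, and lines at group means. The naive genes Nr0b1, Zfp42 and Esrrb and the demethylase gene Tet2 drop from ESC medium to N2B27, Fgf5, Otx2, Prom1 and Lin28b climb, and for Nodal and Lefty1 mutant N2B27 replicate 2 (middle red circle) lies above the other N2B27 arrays of its genotype.

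Genes shared by naive and primed pluripotent cells moved less. Of 14 measured, 9 fell, 2 rose and 3 did not pass, with a median of -0.58. Sox2 read 0.79 and 0.94 in ESC medium and -0.12, -0.68 and -0.99 in N2B27 (-1.46, SE 0.21, adjusted p = 0.000659). Pou5f1, the Oct4 gene that marks all pluripotent cells, went from 0.29 and 0.19 to -0.31, 0.02 and -0.27 (-0.43, SE 0.12, adjusted p = 0.0206). Lin28a and Lin28b, RNA-binding repressors of let-7 maturation that climb as cells leave the naive state, rose by 0.76 and 0.94. Leaving out either mutant ESC array or mutant N2B27 replicate 3 lowered the 9 calls to 4. Pou5f1 was not called without mutant ESC replicate 2 (adjusted p = 0.147) or 3 (0.0658), without mutant N2B27 replicate 1 (0.0577) or 3 (0.0664), with the mutant arrays alone (0.0642), or with the replicate number as a block (0.0509).

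Formative and primed epiblast genes leaned upward, with 12 of 22 higher and 1 lower and a median of 0.77. Fgf5, the growth factor that marks the postimplantation epiblast, read -2.14 and -1.70 in ESC medium and 0.76, 1.01 and 0.00 in N2B27 (2.51, SE 0.31, adjusted p = 0.000294). Otx2, a homeobox gene that steers the exit from the naive state, went from -1.61 and -0.88 to 0.45, 0.23 and 0.48 (1.63, SE 0.19, adjusted p = 0.000199). In both, every N2B27 array lay above both ESC arrays. The carbonic anhydrase gene Car14, the retinoic acid-binding protein gene Crabp2 and the zinc finger genes Sall2 and Zic2 rose by 2.16, 1.92, 1.87 and 1.73. Dnmt3b, a de novo DNA methyltransferase gene, rose by 0.79 (SE 0.13, adjusted p = 0.0018). The gene that fell was Tcf15, by 1.68, a basic helix-loop-helix gene active early in the exit, and without mutant N2B27 replicate 2 there were 4 lower calls. In control cells 9 of the list rose and 6 fell, with a median of 0.12.

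DNA methylation writers and erasers included genes that rose and genes that fell. Of 16 measured, 3 rose, a share near the 14.9% over all genes, and 4 fell, against 10.3% (median 0.15). Under quantile normalization 1 of the 16 was called higher, and the median was 0.07. Tet2, a dioxygenase gene that oxidises methylcytosine, read 2.60 and 2.43 in ESC medium and -0.27, -0.12 and 0.00 in N2B27 (-2.64, SE 0.18, adjusted p = 1.36e-05). Its relative Tet1 fell by 1.63, and Dnmt3l, a cofactor gene of the de novo methyltransferases, fell by 1.91. Dnmt3b, given above, was among the 3 that rose.

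Neural genes changed unevenly. Of 36 neural plate and progenitor genes, 7 rose and 2 fell, with a median of -0.01, so the share that rose, set against 14.9% over all genes, was near the background. Prom1, a membrane glycoprotein gene of progenitors, read -2.35 and -1.75 in ESC medium and 0.60, 0.00 and 0.57 in N2B27 (2.44, SE 0.27, adjusted p = 0.000172). Nes, the intermediate filament gene nestin, went from -1.34 and -0.81 to 1.10, 0.71 and 1.22 (2.08, SE 0.32, adjusted p = 0.00103). The SOX genes Sox4 and Sox11 rose by 1.83 and 1.65. Sox1 and Pax6, the transcription factor genes that define neural plate cells, were not called, and their arrays overlapped between media. Sox1 read 0.02 and 0.08 against -0.13, 0.16 and 0.03, and Pax6 0.42 and -0.15 against -0.08, -0.17 and -0.08. Without mutant ESC replicate 2 there were 4 higher calls. Neither lower call held without that array or mutant N2B27 replicate 3, and the lower count was 1 without mutant ESC replicate 3 or mutant N2B27 replicate 1.

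Early neuronal cytoskeleton and growth cone genes had 13 of 26 higher and 5 lower (median 0.44), against 14.9% and 10.3% over all genes. Dpysl2, a microtubule-binding gene of growth cones, rose by 2.27 (SE 0.22, adjusted p = 9.54e-05). Tubb3, the neuronal tubulin gene, read 1.07 and 0.76 in ESC medium and 0.73, 0.88 and 0.53 in N2B27 and was not called, and Ncam1, a neural adhesion gene, fell by 1.03. The higher count was 8 without mutant ESC replicate 3, and the lower count 3 without either ESC array. Guidance genes (semaphorins, ephrins, plexins, netrins and slits) had 20 of 42 higher and 3 lower (median 0.31), and 13 higher without mutant ESC replicate 2. Sema6a, a membrane semaphorin gene, read -2.38 and -2.04 against 1.22, 0.70 and 0.67 (3.07, SE 0.30, adjusted p = 8.39e-05), and Slit3, for a secreted guidance protein, -0.45 and 0.00 against 2.46, 2.24 and 2.43 (2.60, SE 0.23, adjusted p = 5.13e-05).

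Genes of the BMP and Activin pathways included ligands, receptors and SMADs that changed. Of 31 components, 11 rose, against 14.9% over all genes, and 3 fell, a share near the 10.3% over all genes (median 0.19). Among ligands, Bmp7 rose by 1.22 while Bmp4, Gdf3 and Inhbb, an activin subunit gene, fell by 1.46, 0.99 and 1.81. Bmp4 read 0.57 and 0.38 in ESC medium and -0.69, -1.28 and -0.99 in N2B27, and in control cells its difference was -0.45, not called. Acvr2b, a type II receptor gene, rose by 1.04, and Smad3, of the Activin and NODAL branch, rose by 1.16. Inhbb was not called without mutant ESC replicate 2 (adjusted p = 0.0901).

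BMP-SMAD target genes had 5 of 23 lower and 18 that did not pass (median 0.04), and 3 lower without mutant ESC replicate 2. Id1, an inhibitor of differentiation and a direct SMAD target, read 0.82 and 0.81 in ESC medium and -0.59, -0.20 and -0.53 in N2B27 (-1.25, SE 0.14, adjusted p = 0.000163). Id3 went from 0.94 and 0.43 to -0.23, 0.10 and -0.51 (-0.90, SE 0.20, adjusted p = 0.00828), a call lost without mutant ESC replicate 2 (adjusted p = 0.108). Id2 read -0.46 and -0.59 against -0.89, -0.44 and -1.57, with overlapping arrays and a difference of -0.44 (SE 0.28, adjusted p = 0.332). In control cells Id2 started at 0.90 to 1.51 and reached -1.13 to -0.76, a difference of -2.23. With array weights estimated from the data, Id2 was called in mutant cells, at -0.90 (adjusted p = 0.00624). The weights were 0.361, 0.235 and 2.932 for mutant N2B27 replicates 1, 2 and 3, so the weighted value rests mostly on replicate 3. Smad7, the inhibitory SMAD gene, and Tfap2c, an AP-2 factor gene, fell by 1.69 and 1.61.

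Targets of NODAL, the TGF-beta family ligand of the epiblast, were uneven among the N2B27 arrays. Of 10 measured, 4 fell and 1 rose, Foxh1, a SMAD2 partner gene, by 0.68. Lefty2, a secreted NODAL antagonist gene, read 2.63 and 3.18 in ESC medium and -0.45, 0.00 and -1.10 in N2B27 (-3.42, SE 0.30, adjusted p = 5.39e-05). Lefty1 read 1.64 and 1.52 against -1.70, -0.12 and -2.14 (-2.90, SE 0.64, adjusted p = 0.00759), and Tdgf1, the co-receptor gene Cripto, 1.41 and 1.65 against -1.27, 0.00 and -1.66 (-2.51, SE 0.67, adjusted p = 0.0194). Nodal read 0.58 and 0.30 against -1.03, 0.33 and -1.20. Replicate 2 thus overlapped the ESC arrays for Nodal, and it was the highest of the 3 N2B27 arrays for 9 of the 10 genes, against 10115 of all 19935 genes. The list's median in the N2B27 arrays, taken from the ESC mean, was -1.35, -0.09 and -1.35.

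Nodal was not called (-1.07, adjusted p = 0.128), but was called without mutant N2B27 replicate 2 (-1.56, adjusted p = 0.00919) and with array weights (-1.52, adjusted p = 0.0034). The weighted value again rests mostly on mutant N2B27 replicate 3. Lefty1 was not called without mutant ESC replicate 2 (adjusted p = 0.0613). Tdgf1 was not called without mutant ESC replicate 2 (0.091) or 3 (0.111), mutant N2B27 replicate 1 (0.0536) or 3 (0.0663), or with the replicate number as a block (0.0567). The 4 lower calls among NODAL targets became 2 without mutant ESC replicate 2 and 6 without mutant N2B27 replicate 2.

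Feedback genes of FGF-ERK signalling, the pathway that drives cells out of the naive state, moved unevenly. Of 26, 6 rose, against 14.9% over all genes, and 3 fell, a share near the 10.3% over all genes (median 0.16). In control cells 1 rose and 13 fell (median -0.54). The interaction was positive for 7 of the 26, against 1.57% of genes. Dusp6, a phosphatase gene specific for ERK, read -1.16 and -0.80 in ESC medium and 0.99, 0.39 and 0.47 in N2B27 (1.60, SE 0.20, adjusted p = 0.000304), while control cells stayed within -0.34 to 0.11 in both media. Dusp4, a phosphatase gene of the same family, went from -1.20 and -0.72 to 1.61, 0.93 and 1.10 (2.17, SE 0.34, adjusted p = 0.00123). Spry4, a receptor-level inhibitor gene, fell instead, from 1.83 and 1.98 to -0.17, 0.00 and -0.53 (-2.14, SE 0.22, adjusted p = 0.000126). Myc fell by 1.25 (SE 0.32, adjusted p = 0.0153). It was not called without mutant ESC replicate 2 (adjusted p = 0.129) or with the mutant arrays alone (0.0722). The lower count was 1 without mutant ESC replicate 2 and 7 without mutant N2B27 replicate 2.

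Genes of the LIF response leaned downward. Of 19, 10 fell, against 10.3% over all genes, 2 rose, a share below the 14.9% over all genes, and 7 did not pass (median -0.60). Socs3, the feedback inhibitor gene that STAT3 induces, read 0.95 and 1.07 in ESC medium and -0.31, -0.49 and -0.26 in N2B27 (-1.37, SE 0.09, adjusted p = 1.36e-05). Bcl3, an NF-kappaB cofactor gene, fell by 2.01, Tfcp2l1, a STAT3 target gene of the naive network, fell by 2.28, Klf5 by 1.67 and Lifr, for the LIF receptor itself, by 1.52. The kinase gene Jak2 and the phosphatase gene Ptpn11, which act below the receptor, rose by 1.80 and 0.65. Jak2 read -0.97 and -0.82 against 1.26, -0.05 and 1.49, so replicate 2 stood between, and it was not called without mutant ESC replicate 2 (adjusted p = 0.0698), when 1 list gene was higher.

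WNT target and feedback genes had 5 of 20 higher and 2 lower (median 0.06), the lower share being near the 10.3% over all genes. The antagonist gene Sfrp2 and the receptor gene Fzd7 rose by 1.76 and 1.39, and Tbx3, a T-box gene of naive cells, and Notum, which inactivates WNT ligands, fell by 2.07 and 2.01. Under quantile normalization Fzd7 differed by 0.89. There were 2 higher calls without mutant ESC replicate 2 and 4 lower ones without mutant N2B27 replicate 2.

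YAP-TEAD target and contractile actin genes rose broadly. Of 24 measured, 22 rose and 2 did not pass, with a median of 1.70, and in control cells 11 rose and 1 fell with a median of 0.44. The interaction was positive for 9 of the 24, against 1.57% of genes. Under quantile normalization the list's median in mutant cells was 1.26. Ccn1, a secreted matrix protein gene and a standard YAP target, read -2.45 and -2.30 in ESC medium and 1.48, 0.00 and 0.97 in N2B27 (3.19, SE 0.38, adjusted p = 0.000252). Thbs1, for the matrix protein thrombospondin, went from -2.60 and -2.42 to 1.32, -0.60 and 0.81 (3.02, SE 0.44, adjusted p = 0.000821). Myl9, for a myosin light chain, read -2.20 and -2.10 against 1.12, 0.00 and 0.71 (2.76, SE 0.33, adjusted p = 0.000255). All N2B27 arrays lay above both ESC arrays in these genes, and replicate 2 stood between the other N2B27 arrays and the ESC arrays.

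The calponin gene Cnn1, the smooth muscle actin gene Acta2, the actin-bundling gene Tagln, the calponin gene Cnn2 and the focal adhesion gene Vcl rose by 2.72, 2.45, 2.60, 2.04 and 1.81. Tagln, Cnn2 and Vcl are the genes named from this list with a called interaction. In ESC medium they read -2.315 to -2.034, -1.80 to -1.49 and -1.47 to -1.34 in mutant arrays. Control arrays in ESC medium stood higher, at -0.15 to 0.23, -0.32 to 0.00 and -0.51 to -0.28. In N2B27 the genotypes overlapped in all of them. Mutant arrays read -0.42 to 1.10, -0.12 to 0.73 and 0.02 to 0.73, and control arrays 0.00 to 0.65, 0.06 to 0.59 and 0.06 to 0.35. Over the list, replicate 2 was the lowest N2B27 array for 23 of 24 genes, against 5210 of 19935 genes overall. Its list median was -0.06, with 0.57 and 0.49 in replicates 1 and 3, and without it all 24 genes were called higher. Has2, the hyaluronan synthase gene, which is in no such list, rose by 2.01 with 0.80, 1.21 and 0.59 in N2B27 against -1.26 and -1.02.

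**Figure D3:**
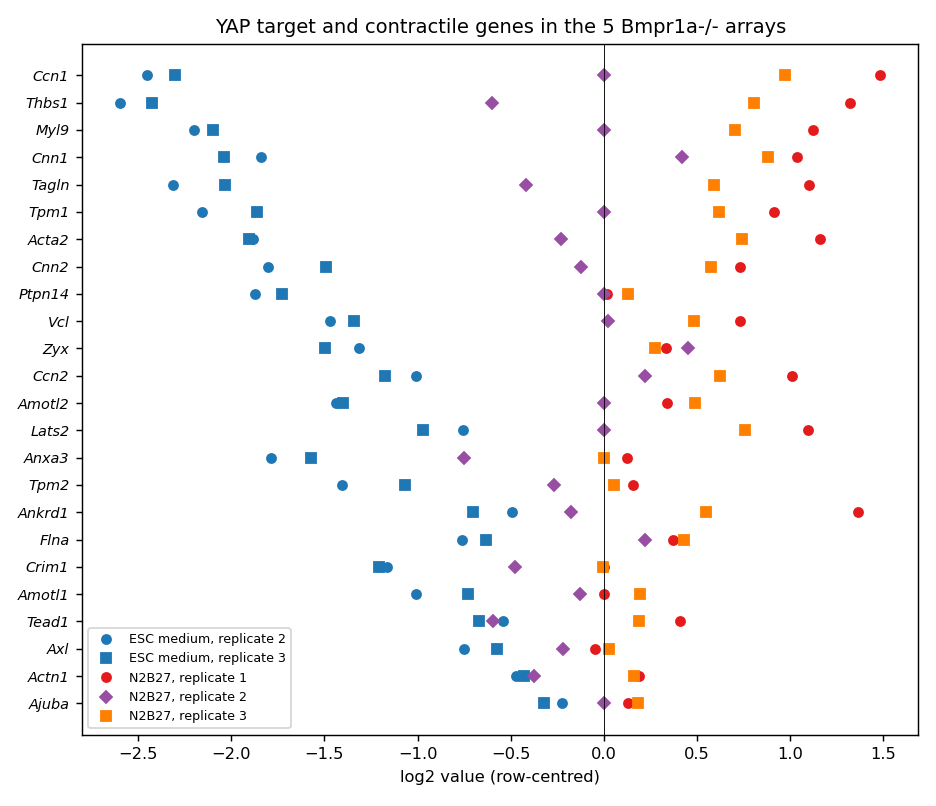
Row-centred log2 values of the 24 YAP target and contractile genes in the 2 ESC medium arrays (blue) and the 3 N2B27 arrays (red, violet and orange) of Bmpr1a-/- cells, ordered by the fitted difference. The ESC arrays sit to the left, N2B27 replicates 1 and 3 to the right, and N2B27 replicate 2 (violet) is the lowest N2B27 array for 23 of 24 genes.

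Promoter sequence was read for this group because its members moved together. The window was the 250 bases before the start of a gene in RefSeq's table for GRCm38.p6, which held a promoter for 19 of the 24 genes. The CArG box, the motif bound by serum response factor (a pair of C, a run of A or T, and a pair of G), was found in 3 of 19, namely Cnn2, Myl9 and Vcl, and in 1.62% of 27025 genes. The TEAD motif GGAATG, searched on both strands like all motifs here, was in 11 of 19 and in 14.4% of all genes. The 5 promoter stretches below run 5′ to 3′ on the strand of its gene, at chr2:156775248-156775367 (plus strand) for Myl9, chr14:20929148-20929267 (plus) for Vcl, chr10:79988480-79988599 (plus) for Cnn2, chr3:145650026-145650145 (minus) for Ccn1 and the coordinates of Acta2 given after them. Capitals mark the CArG box in the first 3 and the TEAD motif in the last 2. The Vcl stretch also holds GGAATG near its end, left in lower case.
Myl9: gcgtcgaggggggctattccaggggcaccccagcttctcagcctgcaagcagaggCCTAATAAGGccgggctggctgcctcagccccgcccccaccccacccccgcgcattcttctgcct
Vcl: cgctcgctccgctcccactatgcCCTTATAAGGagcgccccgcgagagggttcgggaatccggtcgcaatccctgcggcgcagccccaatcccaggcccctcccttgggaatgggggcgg
Cnn2: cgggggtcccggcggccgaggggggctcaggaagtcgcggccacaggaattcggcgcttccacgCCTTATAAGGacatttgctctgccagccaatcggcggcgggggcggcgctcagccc
Ccn1: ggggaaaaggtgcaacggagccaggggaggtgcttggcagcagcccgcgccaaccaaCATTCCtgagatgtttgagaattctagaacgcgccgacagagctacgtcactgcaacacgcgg
Acta2: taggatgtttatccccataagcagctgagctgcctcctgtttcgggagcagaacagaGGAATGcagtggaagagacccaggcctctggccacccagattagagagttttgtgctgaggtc
The Acta2 stretch is at chr19:34255457-34255576 (minus strand). These motifs were paired with the list after its values were seen. A match describes letters and is no evidence of binding.

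Keratin, claudin and epithelial junction genes rose with them. Of 27, 18 rose and 2 fell (median 0.86), and in control cells 7 rose and 7 fell (median 0.06). Krt8, the keratin gene of simple epithelia, read -1.57 and -1.62 in ESC medium and 0.41, 0.16 and 0.46 in N2B27 (1.94, SE 0.11, adjusted p = 8.03e-06), whereas control cells fell by 0.49. Its partner Krt18 rose by 2.18, and the tight junction genes Cldn6 and Cldn7 rose by 2.32 and 2.48. Rab25, a trafficking gene of epithelia, rose by 1.43. Krt19 rose by 1.42 (SE 0.30, adjusted p = 0.00677), and was not called without mutant ESC replicate 2 (adjusted p = 0.0906). Epha1, an ephrin receptor gene, read -2.37 and -1.99 against 0.69, 0.84 and 0.26 (2.78, SE 0.24, adjusted p = 4.4e-05). The keratin gene Krt42 and the epithelial factor gene Grhl3 fell by 1.39 and 1.03.

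Fibroblast markers were checked because contractile genes are also high in feeder cells. Of 26 fibroblast list genes, 13 rose, which were 9 of 9 that are also on the contractile list and 4 of the other 17. Over all genes 14.9% rose. None of the 26 was called lower, and 24 had a positive difference (median 0.44). The summed value of the 6 fixed fibroblast markers (Col1a1, Col1a2, Col3a1, Thy1, Pdgfrb and Postn) was -1.46 and -1.02 in ESC medium and -0.24, 0.35 and 1.63 in N2B27. Of the 6, 1 was called higher. The collagen gene Col3a1 and Postn, picked from these markers after their values were seen, differed by 0.07 each and were not called. The rise of the sum therefore came mostly from the other markers. The part of such cells in the contractile rise was not tested.

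Lipid synthesis genes leaned upward. Of 20 cholesterol synthesis genes, 10 rose, 1 fell and 9 did not pass (median 0.86), and of 20 fatty acid genes 11 rose and 9 did not pass (median 0.54). In control cells the counts were 5 and 1, and 6. Hmgcs1, the enzyme gene that commits carbon to sterols, read -0.80 and -0.69 in ESC medium and -0.04, 0.61 and 0.44 in N2B27 (1.09, SE 0.20, adjusted p = 0.00317). Cyp51, Pmvk and Tm7sf2, enzyme genes further down the pathway, rose by 1.03, 1.14 and 1.05. Ebp, an X-linked sterol isomerase gene, fell by 1.10 and was not called under quantile normalization (-0.65, adjusted p = 0.0599). The desaturase genes Fads2 and Scd1 and the acyl-CoA synthetase gene Acsl4 rose by 1.29, 1.13 and 1.16. Replicate 2 was the highest N2B27 array for 17 of the 20 cholesterol genes. Pmvk and Tm7sf2 were not called without mutant ESC replicate 2 (adjusted p = 0.0945 and 0.0543). The SREBP sterol element TCACNCCAC was in 1 of 16 cholesterol gene promoters, that of Hmgcs1, and in 1.22% of all, and its stretch at chr13:119690158-119690277 (plus strand) is shown with the element in capitals.
Hmgcs1: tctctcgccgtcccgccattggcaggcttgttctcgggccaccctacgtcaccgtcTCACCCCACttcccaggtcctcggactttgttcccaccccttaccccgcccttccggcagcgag

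Targets of ATF4, the factor of the integrated stress response that also serves amino acid synthesis, leaned downward. Of 26, 13 fell, 1 rose and 12 did not pass (median -0.40), where 10.3% of all genes fell and 14.9% rose. In control cells 13 fell. Shmt2, a mitochondrial one-carbon enzyme gene, read 1.08 and 1.12 in ESC medium and -0.54, -0.56 and -0.45 in N2B27 (-1.61, SE 0.18, adjusted p = 0.000179). Nupr1, a stress-induced chromatin protein gene, Chac1, a glutathione-degrading enzyme gene, and Asns, the asparagine synthetase gene, fell by 1.29, 0.88 and 0.41. Atf3 rose, by 0.98, from -0.34 and -0.15 to 1.10, 0.55 and 0.55. The count that fell was 5 without mutant ESC replicate 3 and 8 without mutant N2B27 replicate 1. Chac1 was not called without mutant ESC replicate 3 (adjusted p = 0.0559), nor was Asns without mutant ESC replicate 2 (0.0744) or 3 (0.21) or mutant N2B27 replicate 1 (0.0642) or 2 (0.0686). The amino acid element TGATGNAA was in 8 of 23 promoters of the list, 34.8%, and in 3.91% of all. Of the 8, 4 belong to called genes, which are Atf3 and the 3 genes whose stretches follow, with the element in capitals, from chr6:7693210-7693329 (minus strand), chr2:119350993-119351112 (plus) and chr7:126625517-126625636 (minus).
Asns: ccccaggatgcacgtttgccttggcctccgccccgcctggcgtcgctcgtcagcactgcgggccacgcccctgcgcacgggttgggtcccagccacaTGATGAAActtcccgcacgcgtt
Chac1: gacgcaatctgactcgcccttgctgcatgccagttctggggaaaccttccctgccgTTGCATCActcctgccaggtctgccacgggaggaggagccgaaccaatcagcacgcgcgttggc
Nupr1: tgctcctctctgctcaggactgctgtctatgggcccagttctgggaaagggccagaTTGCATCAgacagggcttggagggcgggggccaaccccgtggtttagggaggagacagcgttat

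Growth and energy genes leaned downward, where 10.3% of all genes were lower and 14.9% higher. Of 32 MYC family and ribosome biogenesis genes, 12 fell and 2 rose (median -0.39). The lower count was 3 without mutant ESC replicate 2 and 21 without mutant N2B27 replicate 2, and neither higher call held without either ESC array. Mycn read 0.36 and 0.58 in ESC medium and -0.86, 0.00 and -0.90 in N2B27 (-1.06, SE 0.24, adjusted p = 0.00993), not called without mutant ESC replicate 3 (adjusted p = 0.0832) or with the mutant arrays alone (0.0507). Cell cycle and replication genes had 11 of 36 lower and 2 higher (median -0.28), with 5 lower without mutant ESC replicate 2 and 6 without replicate 3. Neither higher call of that list held without mutant ESC replicate 2, and the higher count was 1 without mutant ESC replicate 3 or mutant N2B27 replicate 3. Glycolysis and hypoxia genes had 7 of 27 lower and 2 higher (median -0.28), with 3 lower without mutant ESC replicate 3. Over the arrays left out, their higher count ran from 1 to 4 and their median from -0.46 to -0.10. Pfkp, a phosphofructokinase gene, read 1.75 and 2.19 against 0.00, -0.67 and -0.29 (-2.29, SE 0.22, adjusted p = 7.43e-05). Of 27 respiratory chain subunit genes, 7 fell (median -0.12), and 3 without either ESC array, with a median of -0.18 to -0.03 over the arrays left out. The mitochondrial superoxide dismutase gene Sod2 fell by 1.64, and the cationic amino acid transporter gene Slc7a1 fell by 1.64. Amino acid transporter genes as a list did not lean downward, with 7 of 24 higher and 5 lower (median -0.01), both shares above those over all genes. Over the mutant arrays left out, 4 to 7 of them were higher and 3 to 6 lower. Zinc transporters and metallothioneins had 2 of 22 higher and 1 lower, shares below the 14.9% and 10.3% over all genes. Slc39a8, a zinc importer gene, rose from -2.05 and -1.92 to 1.00, -0.33 and 1.43 (2.68, SE 0.45, adjusted p = 0.00165), while the metallothionein genes Mt1 and Mt2, which zinc induces, differed by -0.05 and -0.56, neither called. Mt2 was called when the genes with the lowest variance were dropped (adjusted p = 0.0405).

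Among p53 targets, 11 of 21 rose and 10 did not pass (median 0.49), where 14.9% of all genes rose. In control cells 4 were higher and 3 lower. Btg2, an antiproliferative gene, read -0.91 and -0.82 in ESC medium and 1.27, 0.59 and 0.92 in N2B27 (1.79, SE 0.24, adjusted p = 0.000495). Plk2, a stress-induced kinase gene, went from -0.14 and -0.17 to 1.27, 1.21 and 0.52 (1.16, SE 0.21, adjusted p = 0.00275), while control cells fell by 0.86. Without mutant N2B27 replicate 2, 1 of the 21 was called lower.

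Germline genes leaned downward in both genotypes. Of 25 germline and meiosis genes, 13 fell and 1 rose in mutant cells (median -0.48), and 15 fell in control cells (median -0.49). The rise was not called without any 1 of the mutant arrays. Rpl10l, a ribosomal protein gene of the testis, read 2.77 and 2.62 in ESC medium and 0.23, 0.36 and -0.24 in N2B27 (-2.58, SE 0.19, adjusted p = 1.78e-05). Hormad1 and Sycp1, genes of the meiotic chromosome axis and the synaptonemal complex, and Smc1b, a meiotic cohesin gene, fell by 2.26, 1.45 and 2.09, and Stk31, a kinase gene of germ cells, fell by 1.46. Smc1b differed by -1.31 under quantile normalization. Pramel6 and Pramel7, of a family active in the early embryo, read 3.90 and 3.38, and 3.71 and 3.11, in mutant cells in ESC medium. In N2B27 they lay between -0.11 and 0.00 and between 0.00 and 0.21, differences of -3.70 and -3.30, while control cells stayed within -0.10 to 0.12 in both media. In the list of 2-cell stage and Pramel genes, 4 of 11 fell, and 2 without mutant ESC replicate 2.

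The E-box CACGTG was in the promoters of 11 of 21 germline genes, 52.4%, and in 6.86% of all, and 7 of the 11 were called. It had been listed for the MYC and ribosome genes, where 2 of 27 held it, 7.41%, and was set against the germline list after the data were seen. The stretches below are from chr3:102936132-102936251 (minus strand), chr3:95559557-95559676 (plus) and chr6:49395419-49395538 (plus), with the E-box in capitals. That of Hormad1 holds 2.
Sycp1: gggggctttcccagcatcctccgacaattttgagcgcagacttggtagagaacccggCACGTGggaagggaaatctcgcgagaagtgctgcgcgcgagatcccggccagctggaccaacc
Hormad1: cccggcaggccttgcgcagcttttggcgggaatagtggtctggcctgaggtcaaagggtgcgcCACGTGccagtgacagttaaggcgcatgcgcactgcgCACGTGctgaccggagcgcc
Stk31: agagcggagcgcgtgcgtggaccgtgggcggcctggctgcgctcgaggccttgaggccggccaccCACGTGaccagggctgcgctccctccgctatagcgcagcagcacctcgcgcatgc

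Imprinted genes had 8 of 23 higher and 4 lower (median 0.28), against 14.9% and 10.3% of all genes. The interaction was positive for 5 of them, against 1.57% of genes. Nnat, a paternally expressed membrane protein gene, read -1.43 and -0.88 in ESC medium and 1.38, 1.25 and 1.48 in N2B27 (2.53, SE 0.14, adjusted p = 6.84e-06), and lay between -1.98 and -1.60 in all 6 control arrays. Rian and Meg3, neighbouring noncoding RNA genes of the Dlk1-Dio3 locus, went from -0.01 and 0.35 to 2.15, 1.44 and 1.79, and from 0.00 and 0.41 to 2.06, 1.56 and 1.68, differences of 1.62 and 1.56. Sgce, a sarcoglycan gene, rose by 1.53, and Phlda2, a growth-restraining gene, fell by 1.55.

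The X chromosome stood out among the chromosomes. Xist, the noncoding RNA that coats an X chromosome that is being silenced in female cells, read 1.05 and 0.87 in ESC medium and 4.53, 3.60 and 4.14 in N2B27 (3.13, SE 0.21, adjusted p = 1.36e-05), and stayed between -0.08 and 0.13 in the 6 control arrays. Of 739 X-linked genes, 162 (21.9%) fell and 76 (10.3%) rose, where 9.81% of autosomal genes fell and 15.1% rose. On single autosomes the share that fell ran from 8.37% to 12.1%. Leaving out each mutant array in turn kept the X-linked share that fell between 15.4% and 22.6%. In control cells 11.1% of X-linked genes fell and 13.9% rose. The median X-linked difference was small, at -0.026 against 0.012 over autosomes, and taken from the ESC mean it lay below the autosomal median by 0.028, 0.072 and 0.047 in N2B27 replicates 1, 2 and 3. Of the 110 negative interactions, 38 were X-linked, 34.5%, against 3.71% of the genes tested and 2.56% of the positive interactions. No test was made on these counts.

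X-linked genes that fell include Efhc2, for a cilium protein, and Magea4, of the cancer-testis family. Efhc2 read 4.06 and 4.20 in ESC medium and 2.25, 1.24 and 1.39 in N2B27, while control arrays held it at -0.02 to 0.42. Magea4 went from 2.57 and 2.50 to 1.15, 0.22 and 0.24, and was -0.05 to 0.10 in control. Their differences were -2.50 and -2.0, and -1.48 and -1.28 under quantile normalization. Hprt, of purine salvage, fell by 0.83 and Pgk1, of glycolysis, by 0.50, the latter not called without mutant ESC replicate 3 (-0.32, adjusted p = 0.112). Eif2s3y, given above, had no difference called between media (-0.06, adjusted p = 0.766).

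**Figure D4:**
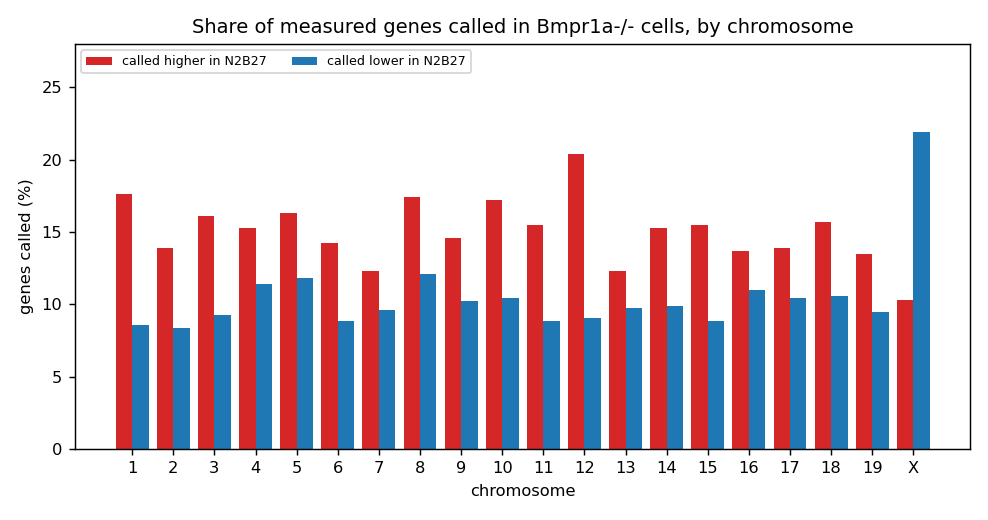
Bars give the share of measured genes on each autosome and the X that were called higher (red) or lower (blue) in N2B27 in Bmpr1a-/- cells, from the limma fit. On the X 21.9% were lower and 10.3% higher, whereas on every autosome the red bar is the taller.

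The remaining lists are given against 14.9% of all genes higher and 10.3% lower. Primitive streak and mesoderm genes had 3 of 26 higher and 2 lower (median 0.00). The higher count was 1 without mutant ESC replicate 2, and the lower count 4 without mutant N2B27 replicate 2 and 1 without mutant ESC replicate 2 or mutant N2B27 replicate 1 or 3. Eomes, a T-box gene of the streak, read -0.32 and -0.37 in ESC medium and 0.91, 1.35 and 0.00 in N2B27 (1.10, SE 0.31, adjusted p = 0.0276). It was not called without mutant ESC replicate 2 (0.126) or 3 (0.128), mutant N2B27 replicate 1 (0.0722), with the mutant arrays alone (0.0998), under quantile normalization (0.0772) or with array weights (0.53, adjusted p = 0.124). Endoderm genes had 7 of 24 higher, a share above that over all genes, and 2 lower, but 2 and 3 higher without mutant ESC replicates 2 and 3 and 1 lower without replicate 2. The basement membrane genes Lamb1 and Sparc rose by 1.10 and 0.77, with 0.67 for Lamb1 under quantile normalization and no call for Sparc without mutant ESC replicate 2 (adjusted p = 0.0509). Gata6 and Sox17, the endoderm factor genes, differed by -0.09 and -0.06, and Cdx2, of trophoblast, by 0.03, none called. Trophoblast genes had 5 of 21 higher and 4 lower, with 3 higher without mutant ESC replicate 2. Notch pathway genes had 9 of 21 higher and 3 lower, with 5 higher without mutant ESC replicate 2 and 1 lower without either ESC array. Neural crest genes had 2 of 15 higher and 3 lower, with 1 higher without either ESC array or mutant N2B27 replicate 1 or 3. Heart and skeletal muscle genes had 4 of 16 higher and 2 lower, with 2 higher without mutant ESC replicate 3, neither lower call without mutant ESC replicate 2, and 1 lower without mutant N2B27 replicate 1 or 3. Blood and endothelial genes had 2 of 18 higher and 2 lower, with 1 higher without either ESC array or mutant N2B27 replicate 2 or 3. Antioxidant and glutathione genes had 6 of 24 higher and 10 lower, and Polycomb group genes 4 of 28 and 8, so both had a lower share above that over all genes. The Polycomb counts were 1 and 3 without mutant ESC replicate 2, and 5 were lower without mutant ESC replicate 3 or mutant N2B27 replicate 3. Collagen and laminin chains had 8 of 27 higher and 2 lower, with 5 and 4 higher without mutant ESC replicates 2 and 3. Neither lower call of that list held without mutant ESC replicate 2, and the lower count was 1 without replicate 3. BCL2 family genes had 6 of 17 higher and 1 lower, and retinoic acid genes 4 of 20 and 3. Unfolded protein response genes had 2 of 20 higher and none lower, and MHC class I antigen presentation genes 2 of 15 and 2. Over the mutant arrays left out, the higher counts of these lists ran from 4 to 7, 1 to 4, 1 to 2 and 1 to 3, in that order.

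**Figure D5:**
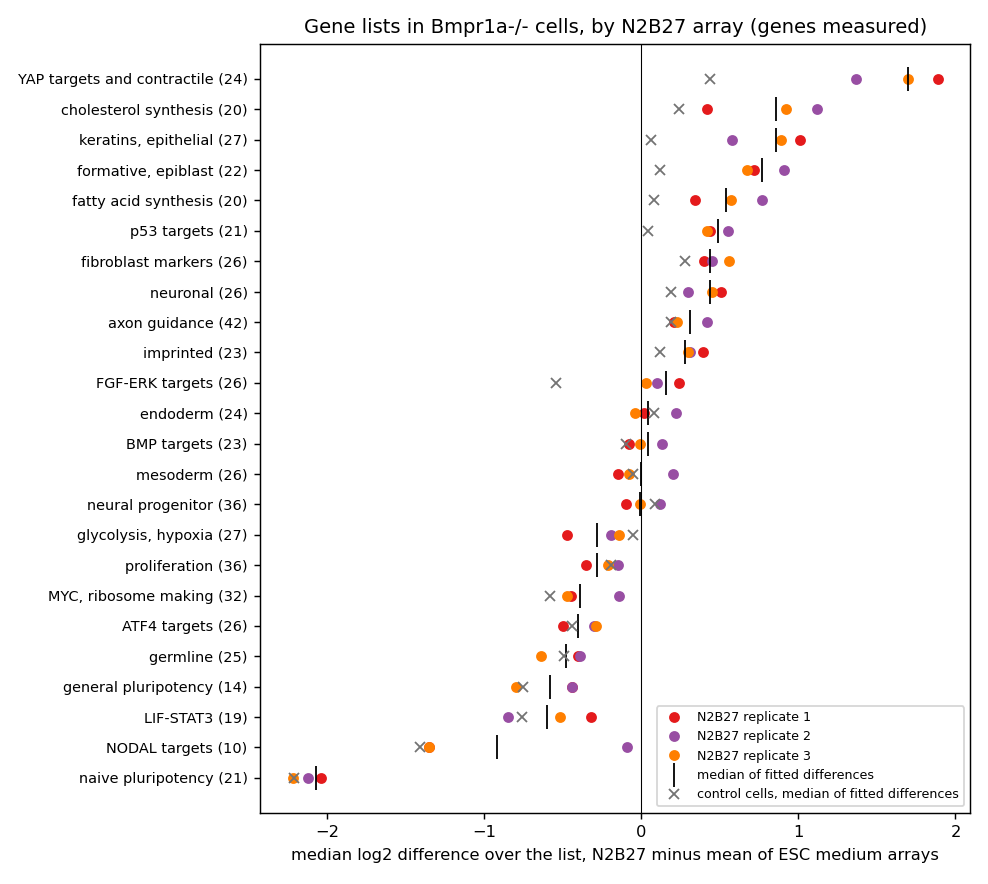
Median log2 difference between each N2B27 array and the mean of the ESC medium arrays of Bmpr1a-/- cells (dots) for 24 gene lists, with the median of the fitted differences in mutant (bars) and control cells (crosses) and the number of genes measured. The contractile list is highest at 1.70 and the naive list lowest at -2.07, and the NODAL list has replicate 2 at -0.09 and the other arrays at -1.35.

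Among genes with established names whose arrays did not overlap between media, large increases not yet given were Kif1a, an axonal transport motor gene, at 3.58, Car4, a carbonic anhydrase gene, at 3.45, the X-linked gene Fndc3c1 at 3.21, Lpar6, a receptor gene for lysophosphatidic acid, at 3.08, Lrp2, the endocytic receptor gene megalin, at 2.78, Serinc5 at 2.74 and Bhlhe41, a circadian repressor gene, at 2.68. Kif1a read -3.53 and -2.84 in ESC medium and 0.45, 0.00 and 0.73 in N2B27. Bhlhe41 was uneven, at 2.16, 0.00 and 2.08 in N2B27 against -1.46 and -1.09, and was not called without mutant ESC replicate 2 (adjusted p = 0.0882) or under quantile normalization (0.0527). Large further decreases were Jam2, a junctional adhesion gene, at -3.98, the autophagy receptor gene Calcoco2 at -3.20, Septin1 at -3.17, Zfp640 at -3.16, Phf11d at -2.90, Morc1, which represses transposons in germ cells, at -2.85 and the ribosomal protein gene Rpl39l at -2.82. Jam2 read 3.95 and 3.68 against -0.08, 0.00 and -0.42, and fell by 4.30 in control cells.

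Whether the response differs from that of control cells was tested for every gene by the interaction, and the counts changed more on leaving out 1 array than those of the medium comparison. Without mutant ESC replicate 2 they were 42 positive and 17 negative, without mutant ESC replicate 3 they were 115 and 47, and without mutant N2B27 replicate 2 they were 471 and 162. Leaving out control ESC replicate 2 or 3 gave 124 and 47 or 137 and 46, and leaving out control N2B27 replicate 2 or 3 gave 148 and 51 or 147 and 49. Without either mutant ESC array that group holds 1 array, so a call can be lost where the difference itself holds. Of the 312 positive interactions, 251 rose in mutant cells, 108 fell in control cells and 47 did both. Of the 110 negative ones, 86 fell in mutant cells, 28 rose in control cells and 4 did both. The interaction was 3.13 for Xist, 2.43 for Krt8, 2.33 for Nnat, 2.60 for Epha1 and 1.87 for Cldn6, and -3.65, -3.28, -2.15 and -1.45 for Pramel6, Pramel7, Dnajc5g, a chaperone gene, and Adgrg6, an adhesion receptor gene. These 9 were called on leaving out any 1 of the 11 arrays, with adjusted p up to 0.0433, and Dnajc5g differed by -1.43 under quantile normalization. In the 4 negative ones the mutant ESC arrays stood above all others, as in Dnajc5g, at 2.29 and 2.36 against 0.06 to 0.18 in mutant N2B27 and -0.06 to 0.09 in control arrays.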

How the data were processed

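The deposited log2 values are RMA output, for which the submitters' processing notes name Affymetrix Expression Console 1.2. The log base was taken from the use of RMA, and the centring of each row was read from the values, 55.8% of clusters holding an exact 0. Brightness is lost with that centring, so no filter on dim probes was possible and precision is limited by the number of arrays. Of 28815 clusters, 21780 carry 1 gene symbol, 1605 several and 5430 none. Symbols were updated through Entrez identifiers in RefSeq's table, which matched 21689, and clusters of a gene were averaged, giving 19935 genes. Group means over all 11 arrays were fitted with limma 3.58.1 in R 4.3.3 (lmFit, eBayes), two-sided, with Benjamini-Hochberg adjustment over all genes. The procedure was tested on simulated data. Deviations of same-numbered arrays from their group means correlated at 0.215 and 0.266 in the 2 mutant pairs and at 0.138, 0.181 and 0.131 in the 3 control pairs. The mutant correlations are less telling, since deviations of 2 ESC arrays mirror each other. The numbers were therefore read as pairing the arrays, from the data and not the labels, and a fit with the number as a block is given where it changes a call. In that fit mutant N2B27 replicate 1, which has no ESC partner, does not enter the mutant difference. The genes and lists were chosen with earlier results of these data known. A rule set 195 genes for naming. They are the 15 largest called changes each way without overlap between media and the 8 largest called interactions each way. Up to 4 called members of each list and a fixed set that includes Bmpr1a complete them. Only part of these 195 genes are given in the text. Acta2, Acvr2b, Asns, Chac1, Cnn2, Col3a1, Cyp51, Eif2s3y, Foxh1, Gdf3, Grhl3, Hprt, Klf5, Krt42, Lifr, Lin28a, Lin28b, Ncam1, Nupr1, Pgk1, Postn, Ptpn11, Rab25, Sgce, Stk31, Sycp1, Vcl and Zic2 were added after their values were seen.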

Additional observations from a re-analysis of the deposited data

Results flagged for a closer look

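Of the genes named, 29 had a called difference in medium response between Bmpr1a-/- and control cells in the limma interaction test. Besides the 9 that were called on leaving out any 1 of the 11 arrays (Xist 3.13, Krt8 2.43, Nnat 2.33, Epha1 2.60, Cldn6 1.87, Pramel6 -3.65, Pramel7 -3.28, Dnajc5g -2.15 and Adgrg6 -1.45), 7 lost the call only without mutant ESC replicate 2. These were Dusp6 at 1.66 (adjusted p = 0.0943 without that array), Krt19 at 2.58 (0.0862), Plk2 at 2.02 (0.0577), Nt5e at 2.36 (0.0631), Efhc2 at -2.39 (0.0528), Magea4 at -2.03 (0.0713) and Sycp1 at -1.09 (0.0597). The last 3 were also not called under quantile normalization. Without mutant ESC replicate 2, 1 mutant ESC array remained. The interactions of these 7 were then 1.48, 2.23, 2.03, 2.39, -2.46, -1.99 and -1.01, in the order given.

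The other 13 were not called without mutant ESC replicate 2 nor without 3 to 8 further arrays, taken 1 at a time. They were Has2 at 2.69, Tagln at 2.35, Sema6a at 2.24, Dusp4 at 2.14, Nes at 2.11, Krt18 at 1.83, Id2 at 1.79, Cnn2 at 1.61, Rian at 1.57, Vcl at 1.2, Sox11 at 1.09, Rlbp1 at -1.5 and Calcoco2 at -1.62. Their highest adjusted p on leaving out 1 array ran from 0.104 for Calcoco2 to 0.22 for Dusp4, and under quantile normalization none but Rian was called. With the replicate number as a block, 6 of the 13 were not called, namely Tagln at 2.02 (adjusted p = 0.0513), Rlbp1 at -1.54 (0.0549), Cnn2 at 1.44 (0.0583), Krt18 at 1.70 (0.0627), Sema6a at 2.06 (0.0897) and Dusp4 at 1.94 (0.103). In mutant cells alone, Nt5e, an ecto-nucleotidase gene, differed by 0.65 and Rlbp1, a retinal-binding protein gene, by -0.32, neither called, while in control cells they differed by -1.71 and 1.17. The mutant difference of Nt5e was called without control ESC replicate 1 (adjusted p = 0.000948), with the mutant arrays alone (0.0145), without the genes of lowest variance (0.0445) and with array weights (0.0474).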

How the results depend on the processing

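Of 149 genes named, 133 were called between media and none of these changed sign under the alternatives run. Leaving out a mutant ESC array leaves 1 array in that group. Without mutant ESC replicate 2, 14 of the 133 lost the call, and without replicate 3, 7 did. Leaving out 1 array gave 1607 to 3339 genes higher and 1113 to 2617 lower, with 509 to 772 and 317 to 371 past a log2 difference of 1, and 42 to 471 positive and 17 to 162 negative interactions. At an adjusted p under 0.01 the counts were 1857 higher and 1215 lower, and 51 and 21 interactions. With the spread estimated from the mutant arrays alone, 2162 genes were higher and 1422 lower, in place of 2971 and 2047 in the main fit. With array weights, 4385 genes were higher and 3304 lower, and 1246 positive and 536 negative interactions were called. The weight of mutant N2B27 replicate 3 was 2.932, against 0.361 and 0.235 for replicates 1 and 2. Quantile normalization gave 1991 genes higher and 1965 lower, with 313 higher past a log2 difference of 1, and 128 positive and 44 negative interactions. The cause of these changes was not tested.

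With the array numbers as a replicate block, 3169 genes were higher and 1993 lower, and 236 positive and 96 negative interactions were called. Mutant N2B27 replicate 1 has no ESC array of its number, so under the block it does not enter the mutant difference. That difference rests on the mutant pairs numbered 2 and 3 and equals the one found on leaving out that array. The block also leaves 3 residual degrees of freedom in place of 7. Pou5f1 (adjusted p = 0.0509) and Tdgf1 (0.0567) lost the call between media under the block, and Cnn2, Dusp4, Krt18, Rlbp1, Sema6a and Tagln that of the interaction. The block changed no other call of a named gene. Under it, differences that were not called changed sign to 0.035 for Mt1, 0.0511 for Sox1 and 0.0022 for Sox17.

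Further sign changes were all of differences that were not called. Quantile normalization gave 0.0143 for Mt1, -0.0008 for Cdx2 and 0.1191 for Tubb3, and array weights 0.0392 for Mt1. Over the arrays left out, these uncalled differences ran from -0.0839 to 0.0633 for Bmpr1a, -0.0522 to 0.1173 for Cdx2, -0.1623 to 0.0328 for Eif2s3y, -0.1362 to 0.0372 for Mt1, -0.531 to 0.0393 for Pax6, -0.0951 to 0.0511 for Sox1 and -0.1737 to 0.0022 for Sox17.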
